A study of Mus musculus with 10 samples.

Results

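The genes described here are 40 interferon-induced genes, taken by name from the 54532 genes of an RNA sequencing table of mouse spleens. They are genes whose transcription rises in cells exposed to interferon, among them Isg15, the IFIT, Mx and OAS families, and the RNA sensor Ddx58. The list leaves out Ifi44, Ifi44l and the guanylate-binding proteins (Gbp genes) by rule. Spleens came from 5 DUSP6 KO mice and 5 WT mice with KRN serum-induced arthritis (KSIA), with 1 library per mouse. DUSP6 KO mice carry the Dusp6tm1Jmol allele throughout the body, and the deposited labels write this genotype as DUSP6 Knockdown. WT mice were C57BL/6J, and both lines were bought from the Jackson Laboratory, so that the allele and any other difference between the lines cannot be told apart. All mice, aged 8 to 12 weeks, received 100 µL of pooled arthritogenic serum into the peritoneum on days 0 and 2, and spleens were taken on day 9, when arthritis peaked. No spleen from a mouse without serum was analysed here, and the sex of each mouse is not given in the labels. Mice are called by genotype and animal number, and number 73 occurs in both groups for different mice.

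Type I interferons bind the receptor IFNAR1/IFNAR2, whose kinases JAK1 and TYK2 pass the signal to transcription factors. STAT2 and IRF9 are parts of the factor ISGF3, which binds the interferon-stimulated response element in the promoters of interferon-induced genes. Interferon gamma acts through its own receptor, and many of its target genes carry the gamma-activated site. The products block viral entry, translation and replication, and several sense foreign nucleic acid or carry the interferon signal further. In the spleen, plasmacytoid dendritic cells, monocytes, macrophages and lymphocytes all make such transcripts. DUSP6 is a phosphatase that removes phosphate from the kinase ERK.

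RefSeq promoter windows on the build GRCm38.p6, from 250 bases before to 50 bases after each gene's annotated start, were at hand for 28 of the 40 genes. The core of the interferon-stimulated response element was searched on both strands as the half-site GAAA, any 2 bases, and GAAA again. It was found in 17 of the 28 genes (60.7%), and in 3.99% of the 27025 genes with a window of that length. The gamma-activated site TTCNNNGAA was found in 6 of the 28 genes (21.4%) and in 9.55% of all genes. Counted only in the bases before the start, the response element core was present in 14 of the 28 genes (50%) against 3.46% of all genes. These are matches of letters, and whether any factor bound there was not measured. The 5 windows printed here belong to Isg15, Rsad2 and Oas3, whose levels varied most between mice, and to Ifit1 and Oas1a, which varied less. Capitals mark the response element core, on whichever strand it lies, and each window is written along the strand of its gene.
Isg15 chr4:156200769-156201068 (minus strand): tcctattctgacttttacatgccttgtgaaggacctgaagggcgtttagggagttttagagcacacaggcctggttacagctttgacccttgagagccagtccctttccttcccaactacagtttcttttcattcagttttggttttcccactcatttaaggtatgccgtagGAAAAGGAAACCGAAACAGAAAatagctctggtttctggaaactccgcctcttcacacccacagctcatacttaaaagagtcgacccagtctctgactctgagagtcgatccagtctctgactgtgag
Rsad2 chr12:26456403-26456702 (minus strand): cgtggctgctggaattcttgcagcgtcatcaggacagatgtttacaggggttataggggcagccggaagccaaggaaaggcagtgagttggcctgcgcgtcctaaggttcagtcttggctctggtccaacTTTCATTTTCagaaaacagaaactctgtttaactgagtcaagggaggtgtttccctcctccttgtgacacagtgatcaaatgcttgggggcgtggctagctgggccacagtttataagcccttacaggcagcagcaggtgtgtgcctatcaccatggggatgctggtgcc
Oas3 chr5:120777610-120777909 (minus strand): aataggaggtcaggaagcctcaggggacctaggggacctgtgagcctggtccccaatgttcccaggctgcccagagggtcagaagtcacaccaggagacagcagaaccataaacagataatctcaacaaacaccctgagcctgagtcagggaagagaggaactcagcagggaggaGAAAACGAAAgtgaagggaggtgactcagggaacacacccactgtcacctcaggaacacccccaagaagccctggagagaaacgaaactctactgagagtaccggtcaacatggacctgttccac
Ifit1 chr19:34640639-34640938 (plus strand): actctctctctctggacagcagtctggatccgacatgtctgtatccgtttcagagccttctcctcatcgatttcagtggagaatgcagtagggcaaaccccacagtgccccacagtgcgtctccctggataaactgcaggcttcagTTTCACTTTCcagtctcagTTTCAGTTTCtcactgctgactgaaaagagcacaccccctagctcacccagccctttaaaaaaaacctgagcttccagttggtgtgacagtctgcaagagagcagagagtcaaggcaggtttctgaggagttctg
Oas1a chr5:120907476-120907775 (minus strand): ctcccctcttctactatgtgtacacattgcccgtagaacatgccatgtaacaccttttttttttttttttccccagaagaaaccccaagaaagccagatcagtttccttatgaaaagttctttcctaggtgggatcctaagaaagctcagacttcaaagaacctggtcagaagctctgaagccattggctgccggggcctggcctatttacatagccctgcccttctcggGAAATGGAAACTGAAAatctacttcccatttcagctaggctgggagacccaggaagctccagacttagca
In Isg15, 3 overlapping cores start 78, 72 and 66 bases before the annotated start. The cores of Oas1a also overlap, while Rsad2 and Oas3 have 1 core each. The core was also found in the windows of Irgm1 and Stat2, which ranked 35 and 37 of 40 by SD within groups, where rank 1 is the widest. The 12 genes without a window were Usp18, Mx1, Mx2, Oas2, Dhx58, Zbp1, Ifi204, Iigp1, Parp9, Parp14, Rtp4 and Ifi27l2a.

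Levels are given as FPKM, the number of read fragments of a gene for its length and the size of the library, as the authors computed it. Whole reads could be recovered from these values, and the libraries held from 14990474 to 19822673 reads in genes, with means of 17084538 in the DUSP6 KO and 16545892 in the WT libraries (two-sided exact permutation p = 0.6032, n = 5 and 5). Dusp6 itself was at 0.428, 0.624, 0.458, 0.383 and 0.308 FPKM in the DUSP6 KO mice, against 16.6 to 23.98 FPKM in WT mice. The fall was −5.19 on the log2 scale (limma adjusted p = 1.333e-07), so each library matched its label. Markers of B cells, T cells, plasma cells and red pulp macrophages were detected in every library. WT 67 stood apart: its exocrine pancreas markers (8 of 8 detected) summed to 15418 FPKM, against 9.55 to 194 FPKM in the other 9 mice. Summed neutrophil markers (9 of 9 detected) spanned 565 to 1935 FPKM in the DUSP6 KO mice and 1131 to 4774 FPKM in WT mice, and summed erythroid markers (9 of 9 detected) 20313 to 104979 and 24388 to 49712 FPKM. In whole spleens, fewer cells of a type and less RNA per cell cannot be told apart.

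No interferon-induced gene of the list passed the test between genotypes. All 40 passed the filter of a mean of at least 0.1 FPKM, and 0 of 40 had an adjusted p of 0.05 or less by limma, where 0.0704% of the 21296 genes tested passed (15 genes). At an unadjusted p under 0.05, limma gave 0 of the 40, where 5.66% of all genes passed. The same test on recovered reads (limma voom) called 0 of 40 and gave 1, Xaf1, with an unadjusted p of 0.0496. None of the 40 had 5 DUSP6 KO values all above or all below the 5 WT values, where 1.11% of all genes did. The smallest adjusted p was 0.909, and the 95% interval of the log2 fold change held 0 for each of the 40.

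The sizes of the differences were small. Log2 fold changes, DUSP6 KO against WT, ran from −0.53 for Oas2 to 0.71 for Xaf1, with a median of −0.086, beside −0.0046 over all genes tested. Of the 40 genes, 11 had a higher and 29 a lower mean log2 level in the DUSP6 KO mice, and 49.0% of all genes were higher. That split moved with single mice: without DUSP6 KO 01 it was 19 higher and 21 lower, with a median of −0.0020, and without DUSP6 KO 73 it was 6 higher and 34 lower, with a median of −0.14. It was also 6 and 34 without WT 83 and with array weights, and 7 and 33 without DUSP6 KO 26. For 34 of the 40 genes the interval lay wholly within a log2 change of 1 in either direction. The other 6 had intervals reaching past that size, so that for them a change of that size could not be set aside at this spread between mice.

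**Figure D1:**
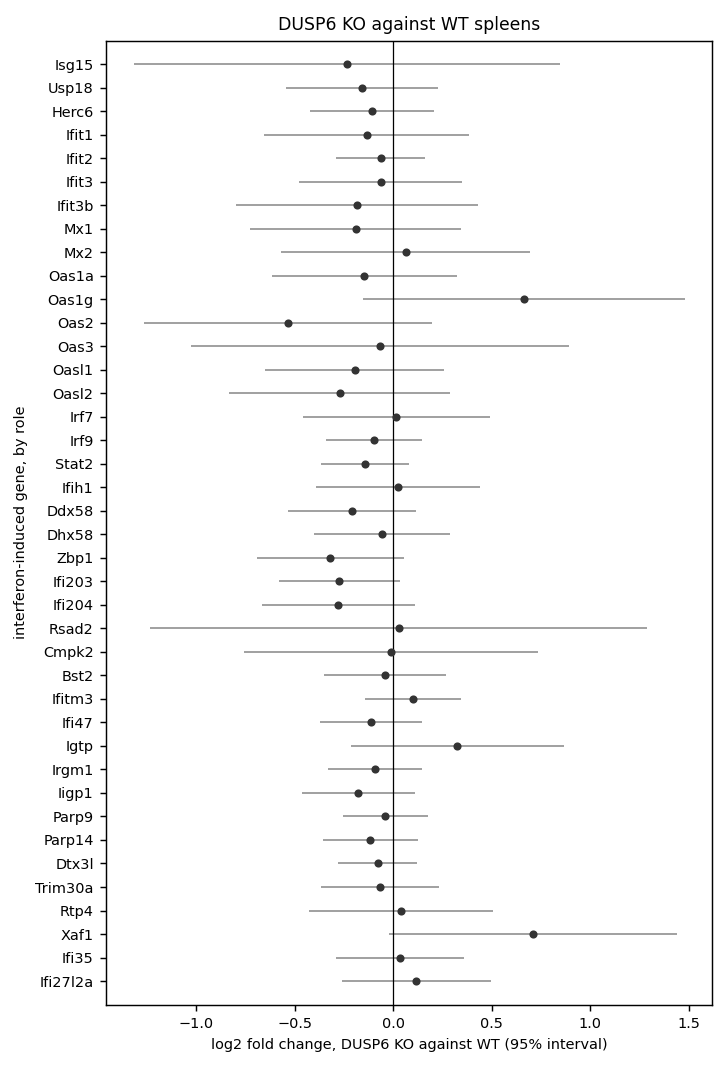
Log2 fold change of each of the 40 genes, DUSP6 KO against WT (points), with its 95% interval from limma (bars), on the horizontal axis. Every bar crosses 0; the bars of Isg15, Rsad2 and Oas3 are the widest, and Xaf1 and Oas1g have the largest positive values, 0.71 and 0.66.

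Both rule-excluded genes of the IFI44 family did differ, which bears on the reading of that count. Ifi44l was at 6.05 to 12.7 FPKM in the DUSP6 KO mice and was listed at 0 in 4 of 5 WT mice, with 0.041 FPKM in the remaining mouse (limma adjusted p = 1.845e-07). Ifi44 was at 3.05 ± 0.40 FPKM in the DUSP6 KO mice and 0.529 ± 0.16 FPKM in WT mice (SD, n = 5 each), which limma put at 2.36 higher on the log2 scale (adjusted p = 0.000772). Limma called 0 of 10 Gbp genes at the adjusted threshold, beside 0.0704% of all genes. At an unadjusted p under 0.05 there were 2, Gbp2b and Gbp2, beside 5.66% of all genes. Gbp2b was at 0.29 to 10.2 FPKM in the DUSP6 KO mice and 0.13 to 0.49 FPKM in WT mice. Its log2 fold change was 3.34 (limma adjusted p = 0.371), and that of Gbp2 was −0.54 (limma adjusted p = 0.753). The study, which tested counts, lists Gbp2b among its most significantly raised genes. The list of 40 was drawn up with these results known, so it is not a neutral sample of interferon-induced genes.

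The spread between mice was larger than the difference between genotypes. The mean log2 level over the 40 genes was 3.62, 3.44, 3.76, 2.99 and 3.30 in DUSP6 KO mice 26, 21, 73, 01 and 03. In WT mice 65, 67, 73, 77 and 83 it was 3.52, 3.54, 3.63, 3.44 and 3.27. The means were 3.42 ± 0.30 and 3.48 ± 0.14 (SD, n = 5 each), and the groups overlapped. By FPKM, DUSP6 KO 73 had the highest mean of all and held the highest value of 17 genes. The library size implied by its FPKM, 14652400, was below its 15434643 reads in genes, while in every other library it was above. Its FPKM therefore stand higher against the other mice than a scaling by gene reads would put them. Its rank under that scaling is not given here. DUSP6 KO 01 had the lowest mean and held the lowest value of 26 genes. WT 67 held the highest value of 10 genes. The log2 SD was larger among DUSP6 KO than among WT mice for 37 of the 40 genes, beside 58.6% of all genes tested. Without DUSP6 KO 01 this was 25 of 40, beside 59.8% of all genes.

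**Figure D2:**
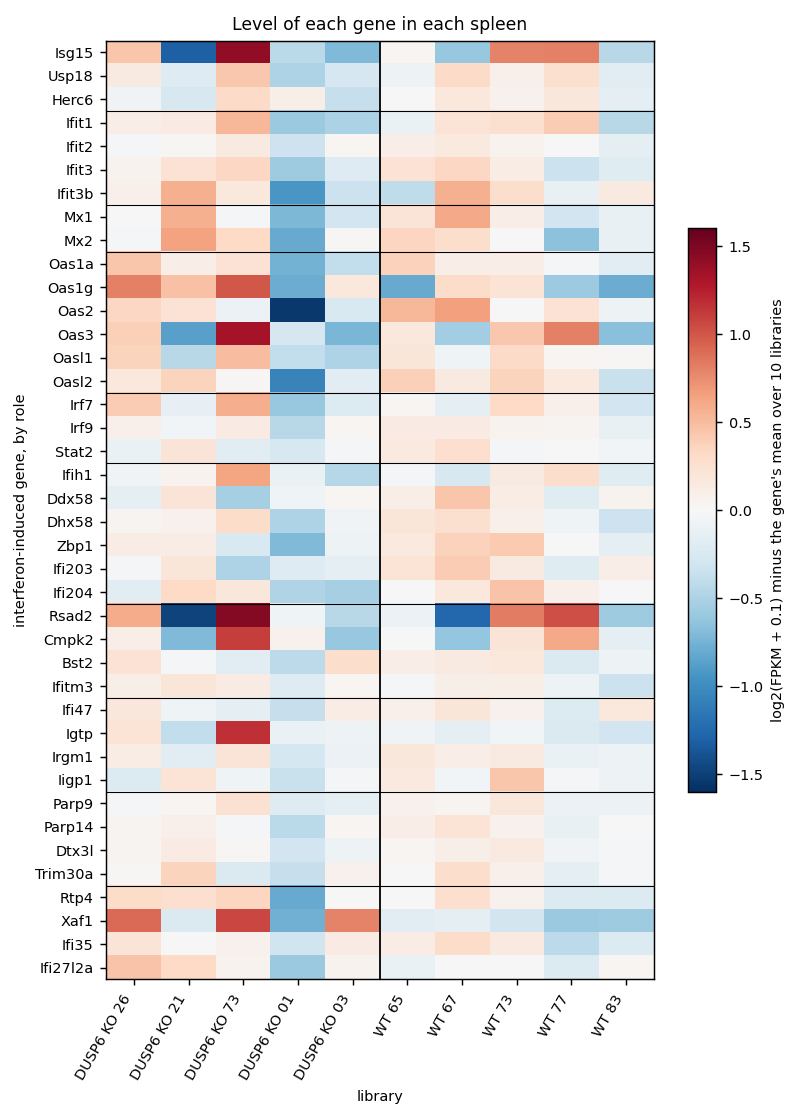
Level of each of the 40 genes (vertical, grouped by role) in each of the 10 libraries (horizontal), as log2(FPKM + 0.1) minus the gene's mean over all libraries; red is above and blue below that mean. The column of DUSP6 KO 01 is mostly blue, and Isg15, Oas3, Rsad2 and Cmpk2 are dark red in DUSP6 KO 73 and blue in DUSP6 KO 21 and WT 67.

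In the accounts of single genes, values are listed for DUSP6 KO mice 26, 21, 73, 01 and 03 and then for WT mice 65, 67, 73, 77 and 83. The genes given mouse by mouse are the 8 with the lowest p, the 4 with the highest mean level, the 4 with the largest spread within groups and near-identical pairs. Cmpk2 and Igtp are given too, and were chosen after their values were seen.

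Isg15 (chromosome 4, 156199424 to 156200818 on the minus strand, GRCm38) encodes a ubiquitin-like protein that is attached to other proteins and also secreted. Its level was 69.4, 20.6, 136, 38.0 and 31.4 FPKM in DUSP6 KO mice. In WT mice it was 52.3, 33.6, 88.6, 89.8 and 37.6 FPKM. The lowest and the highest of the 10 values both came from DUSP6 KO mice, 6.62-fold apart, and the WT values lay between them. The log2 fold change was −0.23 (95% interval −1.32 to 0.85, limma adjusted p = 0.993). Usp18, the protease that takes ISG15 off its targets and holds back receptor signalling, spanned 4.02 to 7.78 FPKM in the DUSP6 KO mice and 5.10 to 7.12 FPKM in WT mice. Herc6, the mouse ligase that attaches ISG15, spanned 2.00 to 3.25 and 2.34 to 2.97 FPKM. All 3 genes of ISG15 conjugation had a lower mean log2 level in DUSP6 KO, and none passed the test.

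The IFIT proteins bind viral RNA and block its translation, and their 4 genes lie in a run on chromosome 19, from Ifit2 (start at 34550694) to Ifit1 (end at 34650009). Ifit3 was at 14.5, 16.3, 17.6, 9.36 and 12.02 FPKM in DUSP6 KO mice and at 16.4, 17.6, 15.2, 11.0 and 12.2 FPKM in WT mice. Its neighbour Ifit3b was at 2.95, 4.19, 3.14, 1.41 and 2.17 FPKM and at 2.08, 4.16, 3.39, 2.56 and 3.10 FPKM. In both genes DUSP6 KO 01 was lowest and the groups overlapped, with log2 fold changes of −0.064 and −0.18 (limma adjusted p = 0.993 for both). Their transcripts were 97.8% identical over 1700 aligned bases, so that the division of reads between them is uncertain. Ifit1 spanned 3.98 to 8.81 FPKM and Ifit2, one of the steadier genes of the list, 5.09 to 7.15 FPKM over the 10 mice. All 4 had a lower mean log2 level in DUSP6 KO and none passed the test.

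Mx1 and Mx2 are dynamin-like GTPases that trap viral nucleocapsids. Mx1 was at 2.49 ± 0.87 FPKM in the DUSP6 KO mice and 2.80 ± 0.72 FPKM in WT mice, and Mx2 at 1.22 ± 0.45 and 1.14 ± 0.31 FPKM (SD, n = 5 each). DUSP6 KO 01 was lowest for both. The transcripts share a stretch of 920 bases at 94.8% identity, so reads there are uncertain, and C57BL/6 mice are known to carry a defective Mx1 gene.

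The OAS enzymes make the messenger 2'-5' oligoadenylate, which activates RNase L. Oas1g was at 1.58, 1.23, 1.81, 0.454 and 0.979 FPKM in DUSP6 KO mice. In WT mice it was at 0.450, 1.07, 1.02, 0.540 and 0.453 FPKM. DUSP6 KO 26, 21 and 73 lay above every WT mouse, while DUSP6 KO 01 and 03 lay within the WT range. The log2 fold change was 0.66 (95% interval −0.15 to 1.48, limma adjusted p = 0.944), on 18 to 69 reads per library. Oas1a, with a transcript 97.5% identical to that of Oas1g over 1860 bases, was at 12.1, 9.60, 10.4, 5.24 and 6.78 FPKM and at 11.5, 9.56, 9.57, 8.68 and 7.93 FPKM. Its log2 fold change was −0.15, of the other sign, and how reads were divided between the pair is uncertain.

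The OAS genes lie in a run on chromosome 5, from Oas2 (120730333 to 120749853) to Oas1a (120896256 to 120907521), with Oasl1 and Oasl2 farther off. Oas2 had the lowest fold change of the list. It was at 2.47, 2.30, 1.82, 0.601 and 1.63 FPKM in the DUSP6 KO mice and at 2.86, 3.12, 1.97, 2.30 and 1.83 FPKM in WT mice. The log2 fold change of −0.53 (limma adjusted p = 0.953) moved to −0.21 when DUSP6 KO 01, the lowest mouse, was left out. Oas3, the next gene on the chromosome, behaved otherwise: it was at 7.03, 2.90, 13.7, 4.48 and 3.20 FPKM and at 6.07, 3.62, 7.29, 9.48 and 3.36 FPKM. DUSP6 KO 73 was highest and DUSP6 KO 21 lowest, as for Isg15, and the log2 fold change was −0.068 (limma adjusted p = 0.998). Oasl1 spanned 3.88 to 7.77 FPKM and Oasl2 1.80 to 5.06 FPKM over the 10 mice. Of the 6 OAS genes, 1 had a higher and 5 a lower mean log2 level in DUSP6 KO, and none passed the test.

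Among the transcription factors of the response, Stat2 was the steadiest. It was at 13.1, 16.4, 12.6, 11.9 and 13.9 FPKM in the DUSP6 KO mice and at 15.9, 17.1, 14.0, 14.1 and 13.8 FPKM in WT mice. The 3 lowest values were from DUSP6 KO mice but DUSP6 KO 21 was the second highest, and the log2 fold change was −0.14 (95% interval −0.36 to 0.08, limma adjusted p = 0.963). Irf9, the DNA-binding part of ISGF3, was at 18.1 ± 2.65 FPKM in the DUSP6 KO mice and 19.3 ± 1.32 FPKM in WT mice. Irf7, which amplifies interferon alpha transcription, was at 19.1 ± 6.33 and 18.3 ± 3.04 FPKM (SD, n = 5 each). None of the 3 passed the test.

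The nucleic acid sensors include 4 of the 8 genes with the lowest p. Ddx58 encodes the RNA sensor RIG-I and was at 10.5, 13.5, 8.13, 11.2 and 11.98 FPKM in the DUSP6 KO mice and at 12.7, 16.004, 12.8, 10.3 and 12.3 FPKM in WT mice. Zbp1, a sensor of Z-form nucleic acid that can start necroptosis, was at 9.63, 9.60, 7.46, 5.41 and 8.35 FPKM and at 9.86, 11.4, 11.8, 8.93 and 8.02 FPKM. For Zbp1 the 3 highest values were from WT mice and the 2 lowest from DUSP6 KO mice, a log2 fold change of −0.32 (95% interval −0.69 to 0.06, limma adjusted p = 0.944). For Ddx58, DUSP6 KO 73 was lowest and WT 67 highest, and its fold change was −0.21 on the log2 scale (limma adjusted p = 0.963).

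Ifi203 and Ifi204 belong to the AIM2-like receptor family on chromosome 1, whose members bind DNA. Ifi203 was at 23.999, 27.8, 17.3, 21.2 and 21.96 FPKM in the DUSP6 KO mice and at 28.5, 32.3, 26.9, 21.3 and 26.2 FPKM in WT mice. Ifi204 was at 5.34, 7.54, 6.84, 4.29 and 4.16 FPKM and at 6.09, 6.78, 8.30, 6.40 and 6.02 FPKM. In each gene the groups overlapped, with log2 fold changes of −0.27 (95% interval −0.58 to 0.03, limma adjusted p = 0.936) and −0.28 (limma adjusted p = 0.953). Ifi203 shares 22085 bases of its span with Mndal on the same strand, and deviations of the pair from the group means correlated at r = 0.97 over 10 mice, so which gene the reads belong to is uncertain. Ifih1, the RNA sensor MDA5, spanned 3.03 to 6.52 FPKM, and Dhx58, the sensor LGP2, 5.22 to 9.09 FPKM over the 10 mice. Of the 6 sensors, 1 had a higher and 5 a lower mean log2 level in DUSP6 KO, and none passed the test.

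Rsad2 (chromosome 12, 26442746 to 26456452 on the minus strand) encodes viperin, which makes a chain-terminating nucleotide from the product of Cmpk2, a nucleotide kinase encoded beside it. Rsad2 was at 56.6, 13.3, 104, 35.7 and 27.7 FPKM in the DUSP6 KO mice and at 35.3, 15.6, 66.1, 76.9 and 25.2 FPKM in WT mice. It had the widest spread of the list, with 7.83-fold between the lowest and the highest mouse, a log2 SD within groups of 1.04 and a log2 fold change of 0.027 (95% interval −1.24 to 1.29, limma adjusted p = 0.998). Cmpk2 was at 14.0, 7.92, 28.1, 13.6 and 8.49 FPKM and at 12.9, 8.39, 14.9, 19.8 and 11.6 FPKM. DUSP6 KO 73 was highest and DUSP6 KO 21 lowest in both, and the group means of Cmpk2 were 14.4 ± 8.17 and 13.5 ± 4.25 FPKM (SD, n = 5 each). The log2 fold change of Cmpk2 was −0.0096 (limma adjusted p = 0.999), so its mean log2 level was slightly lower in DUSP6 KO.

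Bst2 and Ifitm3, membrane proteins that hold virions back or keep them from fusing, were among the 4 genes at the highest levels, and both varied little. Ifitm3 was at 224, 240.3, 230, 182 and 216 FPKM in the DUSP6 KO mice and at 207, 223, 225, 199 and 166 FPKM in WT mice. Bst2 was at 91.7, 76.6, 69.9, 58.5 and 95.3 FPKM and at 84.3, 86.5, 87.8, 66.5 and 74.1 FPKM. The groups overlapped for both, with log2 fold changes of 0.10 (limma adjusted p = 0.988) and −0.041 (limma adjusted p = 0.995).

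The immunity-related GTPases attack the vacuoles of intracellular pathogens and respond mainly to interferon gamma. Igtp was at 38.7, 25.4, 75.3, 30.9 and 31.4 FPKM in the DUSP6 KO mice and at 31.9, 29.8, 32.3, 28.2 and 26.8 FPKM in WT mice. DUSP6 KO 73 stood alone, and the other 9 mice lay between 25.4 and 38.7 FPKM. The log2 fold change was 0.33 (limma adjusted p = 0.974), and 0.072 without DUSP6 KO 73. Igtp shares 7974 bases of its span with Irgm2 on the same strand. Irgm2 was at 39.5 FPKM in DUSP6 KO 73 and at 14.9 to 20.6 FPKM in the other 9 mice, so the pair were high in the same mouse and which gene the reads belong to is uncertain. Ifi47 spanned 25.2 to 37.1 FPKM, Irgm1 11.1 to 15.5 FPKM and Iigp1 9.26 to 16.1 FPKM over the 10 mice, with DUSP6 KO 01 lowest for all 3. Of the 4 GTPases, 1 had a higher and 3 a lower mean log2 level in DUSP6 KO, and none passed the test.

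Parp9 and Dtx3l encode a complex that adds ADP-ribose and ubiquitin to its targets, Parp14 another ADP-ribosyltransferase, and Trim30a a regulator of Toll-like receptor signalling. They were steady: Parp9 was at 13.3 ± 1.66 and 13.6 ± 1.14 FPKM, Dtx3l at 11.7 ± 1.32 and 12.3 ± 0.684 FPKM, and Trim30a at 26.9 ± 5.32 and 27.9 ± 3.30 FPKM in the DUSP6 KO mice and WT mice (SD, n = 5 each). Parp14 was at 10.8 FPKM in DUSP6 KO 01 and at 13.4 to 17.0 FPKM in the other 9 mice. DUSP6 KO 01 was lowest for all 4, and none passed the test. Parp9 and Dtx3l overlap by 682 bases on opposite strands, and the strand setting of the counting is not given in the sources used here.

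Xaf1 (chromosome 11, 72301629 to 72313733 on the plus strand), which encodes a partner of the apoptosis inhibitor XIAP, had the highest fold change and the lowest p of the list. It was at 10.2, 4.60, 11.4, 3.13 and 9.45 FPKM in DUSP6 KO mice. In WT mice it was at 4.79, 4.86, 4.38, 3.55 and 3.62 FPKM. DUSP6 KO 26, 73 and 03 lay well above the other 7 mice, DUSP6 KO 21 lay within the WT range and DUSP6 KO 01 was the lowest of all. The log2 fold change was 0.71 (95% interval −0.02 to 1.44, limma adjusted p = 0.909), and the two-sided exact permutation p was 0.135. Without DUSP6 KO 01 it was 0.99 (limma adjusted p = 0.619), and without DUSP6 KO 73 or any other single mouse it was 0.53 or more. The mean of Xaf1 was 7.76 ± 3.66 FPKM in the DUSP6 KO mice and 4.24 ± 0.625 FPKM in WT mice (SD, n = 5 each).

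Ifi27l2a, a small membrane protein gene, was at 204, 186, 155, 98.5 and 154 FPKM in the DUSP6 KO mice and at 139, 148, 150, 128 and 152 FPKM in WT mice. The 4 highest values and the lowest came from DUSP6 KO mice, and the log2 fold change was 0.12 (limma adjusted p = 0.993). Ifi35 was at 19.997 ± 2.66 and 19.7 ± 3.79 FPKM, and Rtp4, a chaperone of membrane receptors, at 11.0 ± 3.04 and 10.3 ± 1.502 FPKM (SD, n = 5 each).

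**Figure D3:**
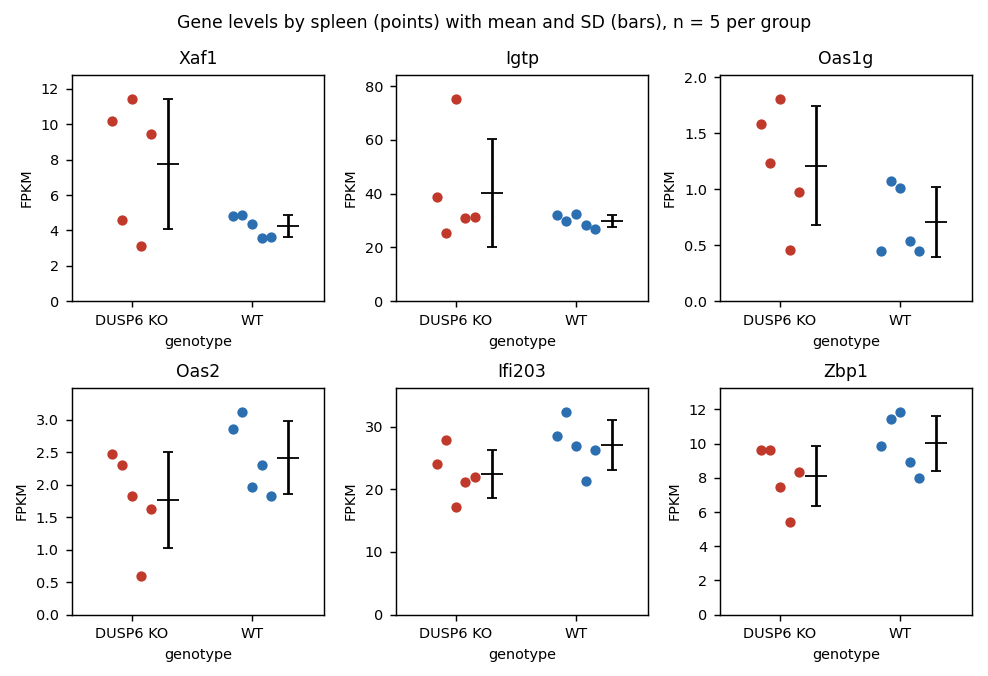
FPKM of 6 genes in each spleen (points; red DUSP6 KO, blue WT), with the mean and SD of 5 mice per group (black bars), on axes that start at 0. For Xaf1, 3 DUSP6 KO mice lie near 10 FPKM and the other 2 with the WT mice. For Igtp, 1 DUSP6 KO mouse lies at 75.3 FPKM. In the other 4 genes the groups overlap in part.

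Most pairs of the 40 genes, though not all, varied in the same direction among mice of a genotype. Over the 780 pairs of genes, deviations from the group means correlated with a median r of 0.53, and 53.5% of pairs had an r of 0.5 or more while 3.46% had an r of −0.5 or less. The mean r was 0.42, beside 0.0084 over all pairs of genes tested. These correlations share libraries, and DUSP6 KO 01, low for most of the list, contributes to many of them: leaving out single mice moved the median r between 0.34 and 0.59. The highest r, 0.98, was between Isg15 and Oas3, and the lowest, −0.95, between Ddx58 and Cmpk2. Neighbours on the chromosome ranged widely. Rsad2 and Cmpk2, 12752 bases apart on opposite strands, had an r of 0.93, and Mx1 and Mx2 an r of 0.90, while Oas2 and Oas3, 3245 bases apart on the same strand, had an r of 0.075.

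A few genes followed the erythroid markers, which are haemoglobin and other red cell genes. Spleens of mice make red cells, and haemoglobin transcripts took from 1.74% of reads in DUSP6 KO 21 to 7.56% in DUSP6 KO 73. The 9 erythroid markers summed to 71735, 20313, 104979, 46470.2 and 29783 FPKM in the DUSP6 KO mice and to 36650.1, 24388, 49491, 49712 and 26903 FPKM in WT mice. DUSP6 KO 73 and 26 were highest and DUSP6 KO 21 and WT 67 lowest, and the groups overlapped.

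Correlations were computed on log2 values over the 10 mice, for 40 genes and 10 marker lists (400 in all), with p from 100000 permutations and Benjamini-Hochberg adjustment over the 400. With the erythroid sum, 5 of the 40 genes had a Pearson r of 0.8 or more, beside 6.65% of all genes, and 1 had an r of −0.8 or less, beside 4.17% of all genes. The 5 were Rsad2, Oas3, Cmpk2, Isg15 and Igtp, which is 12.5% of the list.
Rsad2 had r = 0.93 and rho = 0.96 (permutation p = 0.00015, adjusted p = 0.0325), and r = 0.86 without the 2 mice farthest from the median. Oas3 had r = 0.91 and rho = 0.90 (permutation p = 0.00053, adjusted p = 0.0325), and r = 0.79 without those mice. Cmpk2 had r = 0.90 and rho = 0.95 (permutation p = 0.00052, adjusted p = 0.0325), and r = 0.75 without them. For Isg15, r was 0.89 and rho 0.92 (permutation p = 0.00061, adjusted p = 0.0325), and r was 0.76 without them.

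Within each genotype the relation of these 4 genes was as close. Over the 5 DUSP6 KO mice r was 0.99 for Rsad2, 0.98 for Isg15, 0.96 for Oas3 and 0.94 for Cmpk2, and over the 5 WT mice 0.98, 0.99, 0.96 and 0.91. Rescaling the libraries without haemoglobin and other highly variable transcripts left r at 0.92 for Rsad2 and 0.89 for Cmpk2. Igtp had r = 0.82 and rho = 0.76 (permutation p = 0.00065, adjusted p = 0.0325), but r was 0.38 over the WT mice alone and 0.67 without the 2 farthest mice. Whether red cell precursors made these transcripts was not tested.

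Ddx58 had a negative correlation with the erythroid markers, with r = −0.86 and rho = −0.82 (permutation p = 0.00167, adjusted p = 0.0607), and it correlated with the B cell markers with r = 0.91 (permutation p = 0.00037, adjusted p = 0.0325; rho = 0.70, r = 0.81 without the 2 farthest mice). Ifi203 also correlated with the B cell markers, with r = 0.86 (permutation p = 0.00093, adjusted p = 0.0372; rho = 0.71, r = 0.73 without the 2 farthest mice). For Cmpk2 and the B cell markers r was −0.89 (permutation p = 0.00038, adjusted p = 0.0325; rho = −0.84, r = −0.66 without the 2 farthest mice). In all, 2 of the 40 genes had an r of 0.8 or more with the B cell sum, beside 6.53% of all genes, and 3 had an r of −0.8 or less, beside 8.38%, so these counts lay near those of any genes. Of the remaining correlations, Ifih1 with the T cell markers (r = −0.89, rho = −0.81, permutation p = 0.00065, adjusted p = 0.0325; r = −0.66 without the 2 farthest mice) and Ifi47 with the NK cell markers (r = 0.87, rho = 0.87, permutation p = 0.00084, adjusted p = 0.0372; r = 0.89 without the 2 farthest mice) had an adjusted p under 0.05. An r of −0.8 or less with the T cell sum was found for 1 of the 40, beside 2.55% of all genes, and an r of 0.8 or more with the NK cell sum for 2 of the 40, beside 2.39%. Marker sums are not independent of each other, because all FPKM values in a library are scaled to 1 total. Of the 5 genes with an r of 0.8 or more with the erythroid sum, all but Cmpk2 held the response element core in the promoter window. Among all genes of the list with a window, 17 of 28 (60.7%) held it.

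**Figure D4:**
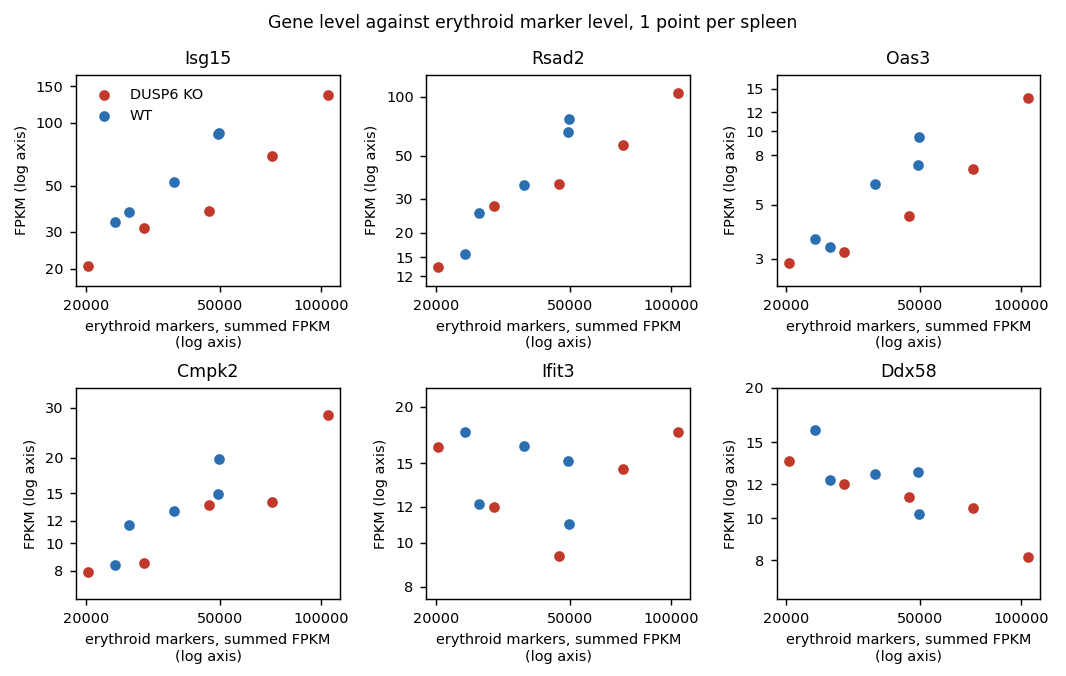
FPKM of 6 genes (vertical, log axis) against the summed FPKM of 9 erythroid markers (horizontal, log axis), 1 point per spleen, red for DUSP6 KO and blue for WT. Isg15, Rsad2, Oas3 and Cmpk2 rise with the erythroid sum in both genotypes (r of 0.89 to 0.93), Ifit3 is given for contrast (r = 0.015), and Ddx58 falls (r = −0.86).

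**Figure D5:**
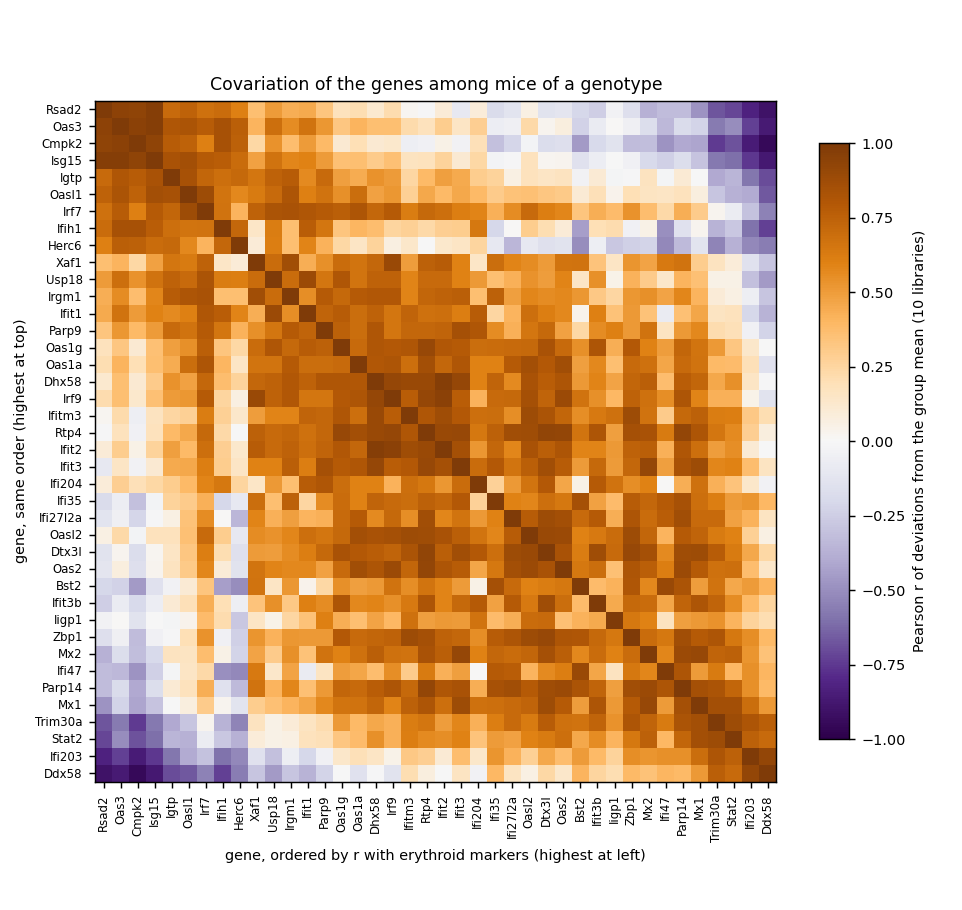
Pearson r between the 40 genes, from deviations of log2(FPKM + 0.1) from the group means over 10 libraries, with genes ordered by their r with the erythroid markers. The top left corner holds Rsad2, Oas3, Cmpk2 and Isg15, which correlate with each other and negatively with Ddx58 and Ifi203 at the other end, while most genes between form a single positive block.

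In the other lists of the pathway limma called 0 genes, and limma voom 0 as well. Of 21 interferon ligand genes, 15 had no read in any library, and 5 others had at most 4 reads in a library. Ifng was the only ligand tested, on 3 to 31 reads per library, and its log2 fold change was −0.71 (limma adjusted p = 0.963). The 15 without a read, Ifnb1 among them, were not detectable at this depth, where a count of 0 allows up to 3 reads in a library's total. Of the interferon alpha genes, Ifna14 had 4 reads in WT 77, Ifna9 2 reads in WT 83 and Ifna13 1 read in WT 73. All 6 receptor genes were tested, with 2 higher and 4 lower, and Ifnar2 had the lowest p (log2 fold change 0.16, limma adjusted p = 0.863).

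Of 10 genes of JAK-STAT and IRF signalling, 2 were higher and 8 lower, led by Stat3 (−0.19, limma adjusted p = 0.942). Of 13 genes of sensing and adaptors, 4 were higher and 9 lower, led by the adaptor Myd88 (−0.18, limma adjusted p = 0.944). Of 10 tested negative regulators, 2 were higher and 8 lower, and Socs3, a feedback inhibitor of cytokine receptors, had the lowest p (−0.47, limma adjusted p = 0.767). All these values are log2 fold changes, and none of the genes passed the test. At an unadjusted p under 0.05, Ifnar2 was the 1 receptor and Socs3 the 1 negative regulator, with 0 genes in the signalling and sensing lists, where 5.66% of all genes passed.

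Beyond the 40, 43 other interferon-induced genes were tested, with 10 higher and 33 lower. Rnf213, a large ubiquitin ligase, was the 1 of 43 without overlap (1.11% of all genes had none), at 9.53 ± 1.35 FPKM in the DUSP6 KO mice and 12.7 ± 1.01 FPKM in WT mice (SD, n = 5 each), and its fold change was −0.42 on the log2 scale (adjusted p = 0.419 by limma). Of 16 interferon gamma response genes, 3 were higher and 13 lower, and Nlrc5, the activator of MHC class I genes, was at 9.53 ± 1.54 and 12.9 ± 1.78 FPKM, a change of −0.44 on the log2 scale (adjusted p = 0.633 by limma). In these lists 3 of 43 and 1 of 16 genes were lower with an unadjusted p under 0.05 and 0 were higher, shares near the 5.66% of all genes tested. Markers of plasmacytoid dendritic cells, the main makers of type I interferon, were detected for 10 of 10 genes, and their sum spanned 265 to 519 FPKM in the DUSP6 KO mice and 318 to 532 FPKM in the WT mice other than WT 67. In WT 67 the sum was 947 FPKM, of which Klk1 gave 285 FPKM, against 1.62 to 4.18 FPKM for Klk1 in the other 9 mice. Ly6d gave the largest part of the sum in every mouse. It spanned 163 to 371 FPKM in the DUSP6 KO mice and 208 to 477 FPKM in WT mice. The sum was lowest in DUSP6 KO 73 and highest in WT 67, as was that of the B cell markers. How much of it came from plasmacytoid dendritic cells was not tested. Of the 10 markers, 3 were higher and 7 lower, and limma called 0 of them. The middle value of their log2 fold changes was −0.13. Siglech and Cd209d were among the 3 that were higher. Siglech, one of these markers, spanned 9.05 to 12.8 FPKM in the DUSP6 KO mice and 6.93 to 10.4 FPKM in WT mice, and its log2 fold change was 0.34 (adjusted p = 0.797 by limma). For Cd209d the groups did not overlap, and its log2 fold change was 1.18 (adjusted p = 0.747 by limma).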

How the data were processed

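RNA of whole spleens was sequenced by a service provider after poly-A selection, with paired reads. Alignment was by Hisat2 and counting by featureCounts 1.5.0-p3, and the authors deposited FPKM values with a length for each of 54532 genes. The processing notes name a human build, but 98% of genes had coordinates identical to GENCODE M21 on GRCm38, which was used for positions. The strand setting of the counting is not given in the sources used here, and 16 of the 40 genes overlap another gene, 7 on the same strand. The scaling behind the FPKM was not the plain sum of gene reads. It implied a library size below the gene reads in DUSP6 KO 73 and above them in every other library.

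Whole reads were recovered from FPKM times gene length. Of the values, 100% came within the tolerance, which was 0.001 of a read and grew in proportion to the count at high counts. The study tested counts; since FPKM were deposited, a linear model with a mean-variance trend (limma 3.58.1, R 4.3.3) was fitted to log2(FPKM + 0.1) in all 10 libraries. It covered 21296 genes, those whose FPKM averaged 0.1 or more, and p-values were adjusted over all of them by Benjamini-Hochberg, with a threshold of 0.05. A fold change on this scale understates the change of low genes. Single values were compared by two-sided exact permutation over all 252 splits, whose smallest p is 0.0079. Marker sums entered correlations as log2 of the summed FPKM. Transcripts were aligned with blastn 2.17.0, and other steps used Python 3.11.15 with numpy 2.4.6, pandas 2.3.3, scipy 1.17.1 and matplotlib 3.10.9.

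The 40 genes and all lists were chosen with earlier results of these data known. Genes given mouse by mouse follow a rule: an adjusted p of 0.05 or less, no overlap, the 8 lowest p, the 4 highest mean FPKM, the 4 largest SDs within groups, and near-identical pairs. In other lists the gene with the lowest p is named. Cmpk2, Igtp, Irgm2, Mndal, Ifi44, Ifi44l, Gbp2, Gbp2b, Ifna9, Ifna13, Ifna14, Klk1, Ly6d, Siglech and Cd209d, and the genes singled out for a correlation, were picked with their values in view. The correlations with marker sums and the comparison of spread between genotypes were also chosen after the data were seen. Alternatives changed the pseudocount (1 or 0.01), the filter (none, or a mean of 1 FPKM), the variance trend (none, or robust), the weights of the libraries, and the scaling (quantiles, medians, or library totals that leave out haemoglobin, immunoglobulin, T cell receptor and mitochondrial transcripts). Others used limma voom on recovered reads or left out each of the 10 libraries in turn.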

Additional observations from a re-analysis of the deposited data

Results flagged for a closer look

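In 106 groups of 5 values (each of the 40 genes, Dusp6, the marker sums, the mean level and the reads), 5 had a mouse far from the other 4 by Dixon's test at 95%. For independent groups of normally distributed values the test would flag about 1 in 20, a share near that seen here. These groups share libraries, and many of the genes vary together. The share therefore cannot say whether any single flag arose by chance.

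Igtp was at 75.3 FPKM in DUSP6 KO 73, against 25.4 to 38.7 FPKM in the other DUSP6 KO mice. Parp14 was at 10.8 FPKM in DUSP6 KO 01, against 14.3 to 15.5 FPKM in the others. Summed monocyte markers were at 407 FPKM in WT 77, against 279 to 304 FPKM in the other WT mice. Summed exocrine pancreas markers were at 15418 FPKM in WT 67, against 13.4 to 194 FPKM. WT 67 also had the most reads of the WT libraries, 18422147, against 15611652 to 16348136 in the others.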

How the results depend on the processing

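No setting brought any of the 40 genes to an adjusted p of 0.05 or less, and the lowest limma adjusted p reached was 0.616 (Ifi204 with array weights). Over 839 alternatives of single genes the fold change kept its direction in 791 and turned in 48, and 23 genes never turned. No paired analysis was possible because the groups share only 1 animal number, which belongs to different mice.

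Array weights gave 13 genes called higher in DUSP6 KO, 2 interferon-induced genes with an unadjusted p under 0.05 (Ifi203 and Ifi204), and turned Mx2 (−0.088), Irf7 (−0.081), Ifih1 (−0.060), Rsad2 (−0.064) and Rtp4 (−0.044). A minimum mean FPKM of 1 gave 4 genes called lower and 758 with an unadjusted p under 0.05, with fewer genes tested. Rescaling gave 1 interferon-induced gene with an unadjusted p under 0.05 and limma voom also 1, Xaf1 both times. Median centring turned Cmpk2 (0.0085). Leaving out single mice, genes called ranged from 10 to 34 (higher 6 to 21, lower 4 to 13), with the most without DUSP6 KO 21. Interferon-induced genes with an unadjusted p under 0.05 ranged from 0 to 4 and those without overlap from 0 to 1 (Ifi27l2a, without DUSP6 KO 01). The 4 were Stat2, Ifi203, Ifi204 and Xaf1, without DUSP6 KO 21. Without DUSP6 KO 01 there were 3, Oas1g, Xaf1 and Ifi27l2a. Over all genes tested (21240 to 21345), those with an unadjusted p under 0.05 also moved, from 998 to 1498, as single mice were left out. That count over all genes is not given here for array weights, rescaling and limma voom. The share of all genes without overlap when 1 mouse is left out is not given either, and smaller groups separate more easily. The cause of these changes was not tested.

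Genes that turned when 1 mouse was left out ranged, in log2 fold change, as follows. Isg15 ranged from −0.62 to 0.064, Rsad2 from −0.34 to 0.40, Oas3 from −0.41 to 0.14 and Cmpk2 from −0.29 to 0.17. Ifit2 ranged from −0.11 to 0.00998, Ifit3 from −0.16 to 0.070 and Ifit3b from −0.35 to 0.026. Mx2 ranged from −0.092 to 0.27, Oas1a from −0.28 to 0.023, Irf7 from −0.13 to 0.17, Ifih1 from −0.13 to 0.14 and Dhx58 from −0.15 to 0.058. Bst2 ranged from −0.12 to 0.059, Parp9 from −0.11 to 0.0062, Trim30a from −0.16 to 0.017, Rtp4 from −0.043 to 0.25 and Ifi35 from −0.066 to 0.12. At 5 mice a group, the spread between mice sets what could be called: the interval of Rsad2 ran from −1.24 to 1.29 and that of Dtx3l from −0.28 to 0.12.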
